A study of Mus musculus with 11 samples.

Results

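The genes of cytoplasmic ribosomal proteins were examined for peaks of IRF4 and PU.1 in mouse B cells. Members were chosen by symbol from the protein-coding genes of the mm9 annotation: Rpl or Rps followed by a digit, Rplp0, Rplp1, Rplp2 and Rpsa, without pseudogenes, symbols that contain the word like, and the Rps6k kinases. Paralogues whose symbol ends in l or l1 therefore stayed in. The rule found 85 of 22367 protein-coding gene models. It uses no measured value. Of the 85, 76 carry the names of ribosomal proteins in general use (31 of the small and 45 of the large subunit). The other 9 are paralogues or genes of similar name (Rpl3l, Rpl7l1, Rpl10l, Rpl22l1, Rpl36al, Rpl39l, Rps4y2, Rps27l and Rps19bp1).

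The study used chromatin immunoprecipitation with sequencing (ChIP-seq), in which an antibody pulls down a protein with the DNA it sits on; a peak is a place where that DNA is enriched. The cells were resting mature B cells purified from spleens of B1-8i mice, whose targeted antibody gene recognises the hapten NP, on the 129 background. All were cultured, at 0.5 M cells per mL, in CD40L, NP-Ficoll at 0.01 ng/mL, IL-2, IL-4 and IL-5, for 1 day (activated, before differentiation) or 3 days (after differentiation into plasma cells). There were 3 anti-IRF4 libraries and 2 anti-PU.1 libraries per day, plus 1 input library without a peak list. After 3 days such a culture can hold both plasma cells and cells that have not differentiated, and the peak lists do not separate them.

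Ribosomal proteins are made in fixed proportion to one another, and a cell that grows or starts to secrete antibody needs many ribosomes. Their promoters are compact, active in nearly all cells, and often hold sites for Ets factors such as GABPA near the start of transcription. PU.1 is an Ets factor of B and myeloid cells and reads a purine-rich site around GGAA. IRF4 is raised in activated B cells and is high in plasma cells; it binds poorly alone and often sits beside PU.1 on a joint Ets-IRF element (EICE).

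At ribosomal protein promoters the Ets core, GGAAG, was usually near the PU.1 peak. The lines below give the core nearest to the PU.1 peak of day 3, with 10 bases to either side, in 10 of the 12 members that had promoter peaks in the most libraries; the other two, Rpl17 and Rps14, are not shown. All read on the strand of the core, which is in capitals, and all coordinates are mm9. In 7 of the 10 the base just before the core is C, and in the other 3 (Rpl5, Rpl3 and Rpl36a) it is A.
Rps19 (chr7:25669330-25669354, minus strand): ttttgagggcGGAAGtgcgggcgaa
Rps3 (chr7:106632167-106632191, plus strand): gctcgcgggcGGAAGtaggtatata
Rps26 (chr10:128063848-128063872, plus strand): gttccagagcGGAAGttatccagaa
Rps15 (chr10:79755121-79755145, plus strand): tccgcagagcGGAAGctgttgagcg
Rps12 (chr10:23507110-23507134, minus strand): tcctaaaggcGGAAGtggaaactcc
Rps18 (chr17:34092639-34092663, plus strand): gattcctggcGGAAGaggcggggct
Rpl10 (chrX:71515938-71515962, plus strand): atggccaggcGGAAGctggtttctc
Rpl5 (chr5:108330156-108330180, plus strand): taggcagggaGGAAGtgagcgccga
Rpl3 (chr15:79914056-79914080, minus strand): agaagtgagaGGAAGcacaatgcct
Rpl36a (chrX:131120164-131120188, plus strand): acggctctgaGGAAGtgcacccagg

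Whole start regions follow, from 100 bases before to 20 after the annotated start, on the strand of the gene, with each GGAAG or its reverse complement CTTCC in capitals. Rps19, Rpl5, Rps3 and Rps26 are shown because they lead the members with promoter peaks in the most libraries. Rpl10l and Rpl12 come first in symbol order among those with no promoter peak in any library. The PU.1 peak positions of Rpl5, Rps3 and Rps26 lie outside the printed regions. Those of Rps19 lie inside on day 3 and outside on day 1. A core was also found in the Rpl10l and Rpl12 regions, so its presence alone does not separate these examples.
Rps19 (chr7:25669290-25669409, plus strand): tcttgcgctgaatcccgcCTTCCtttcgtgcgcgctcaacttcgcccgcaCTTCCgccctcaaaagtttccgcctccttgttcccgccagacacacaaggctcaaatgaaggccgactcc
Rps3 (chr7:106632229-106632348, minus strand): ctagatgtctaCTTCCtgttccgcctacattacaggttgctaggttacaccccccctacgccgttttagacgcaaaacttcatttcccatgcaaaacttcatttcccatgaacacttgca
Rpl5 (chr5:108329421-108329540, plus strand): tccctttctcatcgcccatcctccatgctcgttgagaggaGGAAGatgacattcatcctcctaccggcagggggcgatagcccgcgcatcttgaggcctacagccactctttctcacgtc
Rps26 (chr10:128063543-128063662, minus strand): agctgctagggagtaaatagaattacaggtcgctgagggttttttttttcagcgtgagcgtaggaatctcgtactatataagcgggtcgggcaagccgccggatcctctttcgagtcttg
Rpl10l (chr12:67385369-67385488, minus strand): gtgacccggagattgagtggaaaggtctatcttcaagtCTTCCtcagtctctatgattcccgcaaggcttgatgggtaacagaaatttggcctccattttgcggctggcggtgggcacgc
Rpl12 (chr2:32816979-32817098, plus strand): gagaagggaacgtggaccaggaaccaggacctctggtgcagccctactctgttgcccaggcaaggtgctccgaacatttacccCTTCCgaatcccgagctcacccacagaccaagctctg

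The lists give peak positions and the authors' fold enrichment over input, which ranks and describes peaks within a list and is on no common scale between lists. They hold no read counts, so the depth behind a peak is unknown. Lists of IRF4 had 825, 9326 and 8929 peaks (day 1) and 2784, 1408 and 5595 (day 3). Those of PU.1 had 27321 and 38052 (day 1) and 34410 and 34061 (day 3). List length therefore differed strongly between the factors and among the IRF4 libraries, and it touches every count below. Whether replicates were separate animals or cultures is not stated in the labels, and a p-value here covers only the spread among the libraries, which may be technical.

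PU.1 peaks lay within 1 kb of the start of most ribosomal protein genes in every PU.1 library. On day 1, 45 of the 85 genes (52.9%) had such a promoter peak in replicate 1, against 14.6% of all genes. In replicate 2 it was 48 (56.5%), against 22.0% of all genes. On day 3, 57 (67.1%) had one in replicate 1, against 27.4%, and 50 (58.8%) in replicate 2, against 19.9%. In each of the 4 libraries the share of ribosomal protein genes was over that of all genes.

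IRF4 promoter peaks were few. On day 1 the 3 libraries had 0, 5 and 5 ribosomal protein genes with one, against 0.219%, 3.76% and 3.29% of all genes. On day 3 they had 0, 0 and 4, against 0.925%, 0.452% and 2.75% of all genes. The 3 libraries without any were those with the shortest lists. No test was made of counts of 0 to 5 genes against these shares.

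**Figure D1:**
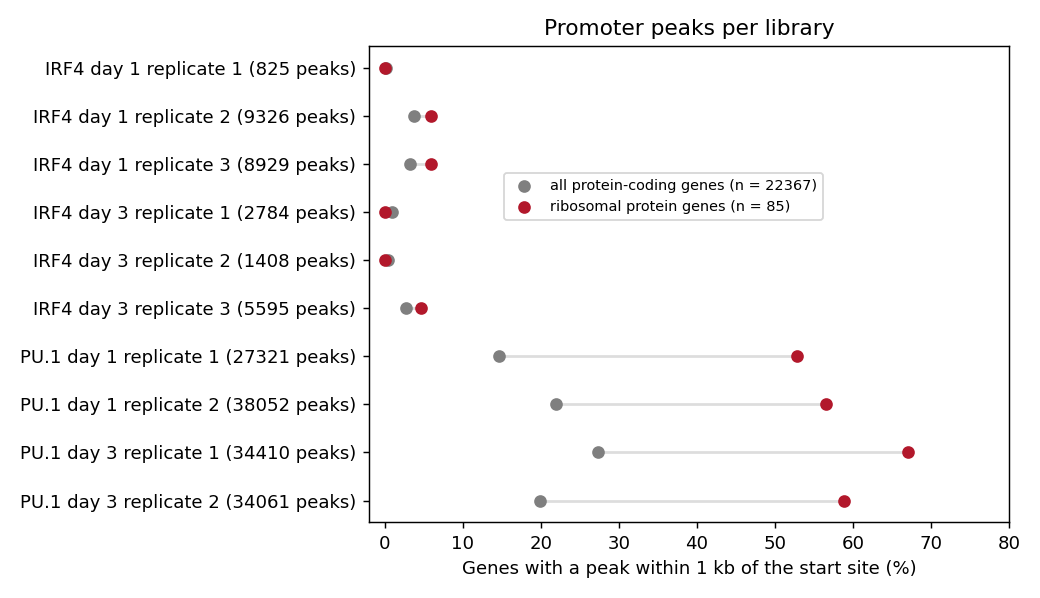
Share of genes with a peak within 1 kb of the start site (x axis, %) in each of the 10 libraries (rows, with the number of peaks in the list), for the 85 ribosomal protein genes (red) and all 22367 protein-coding genes (grey). The 4 PU.1 libraries sit between 52.9% and 67.1% for ribosomal protein genes and between 14.6% and 27.4% for all genes, while the IRF4 libraries stay near 0 for both.

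The number of ribosomal protein genes with a promoter peak was 50 ± 5.10 (SD, n = 4) in the PU.1 libraries and 2.33 ± 2.58 (SD, n = 6) in the IRF4 libraries, a difference of 47.7 genes. Every PU.1 library was above every IRF4 library (exact permutation test over libraries, two-sided, p = 0.00952, the smallest these group sizes allow; 0.0286 after Benjamini-Hochberg adjustment over 3 tests). The share of all genes separated the libraries in the same way, at 14.6% to 27.4% for PU.1 and 0.219% to 3.76% for IRF4. The p-value is therefore not particular to ribosomal protein genes. The difference of 47.7 genes depends on the length of the lists. With each PU.1 list held to its top 9326 peaks, as many as the longest IRF4 list has, 13 (15.3%) and 19 (22.4%) genes were left on day 1 and 34 (40.0%) and 19 (22.4%) on day 3. The same lists left 4.19% and 5.1% of all genes on day 1 and 8.46% and 4.9% on day 3. The counts gave a difference of 18.9 from the IRF4 libraries (exact permutation p = 0.00952). The IRF4 lists were left whole, so those other than the longest stayed shorter than the PU.1 lists. Among all genes the factors again separated, with at most 3.76% in an IRF4 library, so this p-value too is not particular to ribosomal protein genes. With only the top 825 peaks of each of the 10 libraries, none of the PU.1 libraries kept a ribosomal protein gene and 1 IRF4 library kept Rpl13, so the difference was -0.167 (exact permutation p = 1). Only 0.219% to 0.523% of all genes had a promoter peak in these top 825, so counts of 0 or 1 in 85 genes lie near the share of all genes. The promoter peaks at these genes were thus outside the top 825 peaks of any PU.1 library.

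Both day 3 libraries of PU.1 had more ribosomal protein genes with a promoter peak than both day 1 libraries, but 2 libraries against 2 cannot reach the threshold. PU.1 had promoter peaks at 46.5 ± 2.12 genes on day 1 and 53.5 ± 4.95 on day 3 (SD, n = 2 each; exact permutation p = 0.3333, the smallest that 2 against 2 allow; adjusted p = 0.4). With the same number of top peaks in each library, 27321, the counts were 45 and 45 on day 1 and 50 and 48 on day 3. For IRF4 they were 3.33 ± 2.89 on day 1 and 1.33 ± 2.31 on day 3 (SD, n = 3 each; exact permutation p = 0.4, adjusted p = 0.4, smallest possible 0.1). The IRF4 libraries of the days overlapped. Neither p-value shows that the days were alike. For PU.1, the share of all genes within the top 27321 peaks is not given here. A higher day 3 count at these genes therefore cannot be told from a general one.

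The same genes recurred across PU.1 libraries. Of the 85, 34 (40.0%) had a promoter peak in all 4, against 10.7% of all genes; 12 had one in 3 libraries, 9 in 2, 10 in 1 and 20 in none. Of the 65 with a peak in any PU.1 library (76.5%, against 32.4% of all genes), 52.3% had it in all 4. Among genes that are no ribosomal protein genes it was 32.8% of those with any.

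**Figure D2:**
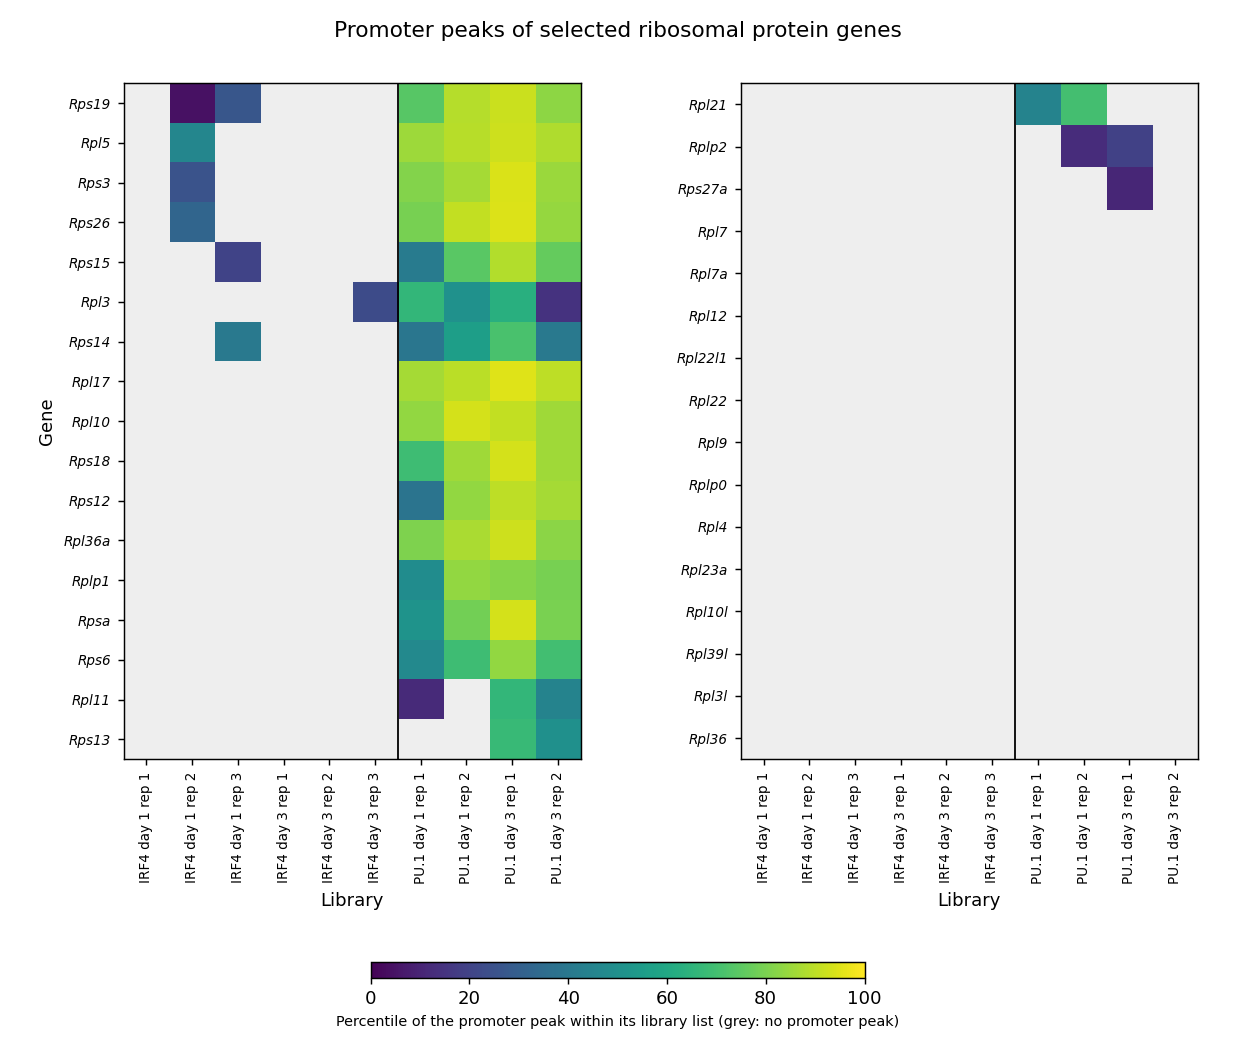
Promoter peaks of the 33 ribosomal protein genes that the naming rules select (rows, ordered by number of libraries with a peak, down the left and then the right panel) in the 10 libraries (columns, the line separates IRF4 from PU.1); colour gives the percentile of the peak's enrichment within its own library list and grey means no promoter peak. Rps19 at the top has peaks in 6 libraries, and the genes at the foot of the right panel have none.

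Both subunits took part. Of the 31 small subunit genes in general use, 15 (48.4%) had a promoter peak in all 4 PU.1 libraries and 27 (87.1%) in at least 1. Of the 45 large subunit genes it was 16 (35.6%) and 35 (77.8%). Of the 9 paralogues and genes of similar name, 3 had one in all 4 libraries and 6 in none. The 3 were Rpl7l1, Rpl36al and Rps19bp1; the last encodes a binding partner of Rps19 and no part of the ribosome.

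Among small subunit genes, Rps19, which encodes a protein of subunit maturation and is mutated in Diamond-Blackfan anaemia, had promoter peaks in 6 of the 10 libraries, more than any other member. Its PU.1 enrichment came to 58.8 and 125 in the day 1 libraries and 181 and 93.0 in those of day 3, with peak positions 16 to 93 bases after the start. These peaks ranked between the 74.1 and 91.9 percentile of their lists.

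Rps3, which lines the mRNA entry channel, had PU.1 enrichment of 78.3 and 102 on day 1 and 244 and 105 on day 3, at 25 to 64 bases after the start. Rps26, a protein of the mRNA exit channel, had 72.1 and 147 on day 1 and 255 and 99.6 on day 3. Its peak positions were -291 to -314 relative to the annotated start (negative means before it), where the printed core is found, and outside the printed start region. In Rps19, Rps3 and Rps26 the highest value was that of day 3 replicate 1, the library in which other promoters with a peak also had the highest median (39.0, against 29.3, 31.5 and 32.4 in the other libraries).

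Rps15 had 26.6 and 58.1 on day 1 and 133 and 68.9 on day 3, just before its start. Rps12 had 25.2 and 85.3 on day 1 and 150 and 119 on day 3, and Rps18 had 49.9 and 95.6 on day 1 and 222 and 112 on day 3. Since the libraries were not scaled to each other, the order of these values between days is not read as a change. Rps14, whose loss underlies the anaemia of the 5q- syndrome, was lower: 25.5 and 34.6 on day 1 and 59.0 and 26.7 on day 3.

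Rpsa, the small subunit protein also known as the laminin receptor, had 32.0 and 67.7 on day 1 and 222 and 80.3 on day 3. Rps6, the target of the S6 kinases that growth signals switch on, had 29.3 and 48.5 on day 1 and 99.7 and 54.6 on day 3, with positions from 8 bases before to 27 after the start. Rps27a, whose product is made as a fusion with ubiquitin, had a promoter peak in day 3 replicate 1 alone, at 16.9.

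Among large subunit genes, Rpl17, at the mouth of the exit tunnel, had 103 and 134 on day 1 and 270 and 152 on day 3. Its 4 peak positions fell between 4 bases before and 1 base after the start, within 5 bases of one another. Rpl10, needed for the joining of the subunits, had 87.8 and 199 on day 1 and 163 and 112 on day 3. Rpl36a had 76.2 and 107 on day 1 and 189 and 90.7 on day 3, and Rpl3, beside the peptidyl transferase centre, had 45.9 and 30.7 on day 1 and 45.1 and 18 on day 3.

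Rpl5 and Rpl11 form with 5S rRNA the particle that binds Mdm2 when ribosome assembly fails, and their peaks differed. Rpl5 had 94.5 and 127 on day 1 and 194 and 132 on day 3, all 625 to 645 bases after the annotated start, in an intron. Rpl11 had 17.2 in day 1 replicate 1, none in day 1 replicate 2, and 50.1 and 28.9 on day 3, at 7 to 35 bases after the start. Of the stalk proteins, which recruit elongation factors, Rplp1 had 30.3 and 86.3 on day 1 and 91.0 and 78.8 on day 3, Rplp2 had 17.3 in day 1 replicate 2 and 18.9 in day 3 replicate 1 only, and Rplp0 had none.

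A peak in both libraries of 1 day and neither of the other was seen at 2 genes. The share of all genes with such calls is not given here, so this count is not read as high or low. Rpl21 had 28.2 and 49.9 on day 1 and none on day 3. Rps13 had 51.6 and 32.3 on day 3 and none on day 1. With so few libraries and a threshold on each list these are descriptions of calls, not tested differences.

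Of the 85 genes, 19 (22.4%) had a promoter peak in none of the 10 libraries, against 65.5% of all genes. They were Rpl3l, Rpl4, Rpl7, Rpl7a, Rpl9, Rpl10l, Rpl12, Rpl22, Rpl22l1, Rpl23a, Rpl36, Rpl39l, Rplp0, Rps2, Rps4x, Rps4y2, Rps10, Rps27l and Rps29; those beyond the first 12 in symbol order are listed to complete the group. The annotated start bears on some of these calls. RefSeq puts the start of Rps2 1947 bases and that of Rps10 1385 bases from the gene start used here, and from the RefSeq start each had a promoter peak in 1 PU.1 library. Rpl18, with a RefSeq start 2614 bases away, went from 1 PU.1 library to 4, and Rpl13a, 7672 bases away, from 1 to 3. RefSeq starts could be placed in mm9 for 64 of the 85 genes, and the others kept the annotated start.

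By the distance from the start to the nearest peak, the genes next to the 1 kb limit in the PU.1 day 1 group list were Rps25 (665 bases) and Rps9 (658) inside it, and Rps27a (1506) was among those outside it. On day 3 they were Rpl5 (625) and Rpl35 (457) inside, and Rpl18 (2189) was among those outside.

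The authors' group lists hold 1 list per factor and day, whose lines are copies from library lists; for PU.1 all came from replicate 1. In them 38 ribosomal protein genes (44.7%) had a PU.1 promoter peak on day 1, against 12.3% of all genes, and 44 (51.8%) on day 3, against 16.6%. Of these, 34 had one on both days, 4 on day 1 only and 10 on day 3 only. Among all genes, 2242 had one on both days, 508 on day 1 only and 1464 on day 3 only, so the larger number on day 3 was general. In the IRF4 group lists 1 ribosomal protein gene, Rps19, had a promoter peak on day 1, against 0.823% of all genes. On day 3 none had one, against 0.572%.

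Within 20 kb of the gene the contrast was smaller. PU.1 group-list peaks lay there for 65 genes (76.5%) on day 1, against 52.2% of all genes, and for 68 (80%) on day 3, against 54.4%. IRF4 group-list peaks lay there for 9 (10.6%) on day 1, against 10.0%, and 3 (3.53%) on day 3, against 8.46%.

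PU.1 peaks at these promoters sat close to the start; where a promoter had several peaks in a list, values are those of the strongest. The median distance, in either direction, was 64 and 55.5 bases in the day 1 libraries and 47 and 39.5 in the day 3 libraries. For other genes with a PU.1 promoter peak it was 254 and 214, then 164 and 193 bases. Within 100 bases of the start lay 57.8% and 60.4% of the ribosomal protein genes' peaks on day 1 and 73.7% and 70.0% on day 3, against 31.1%, 33.6%, 40.1% and 37.8% for other genes. From RefSeq starts, or the annotated start where none could be placed, the medians were 53.5, 56, 40 and 46 bases, against 239.5, 206, 150 and 183. RefSeq starts were placed for 64 of the 85 genes and 16567 of all 22367, so these medians are no independent check. By the annotation, the day 3 group-list peak lay before the start in 22 of 44 genes, in a UTR in 19 and in an intron in 2; that of Rpl11 lay in the gene but in no coding transcript.

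**Figure D3:**
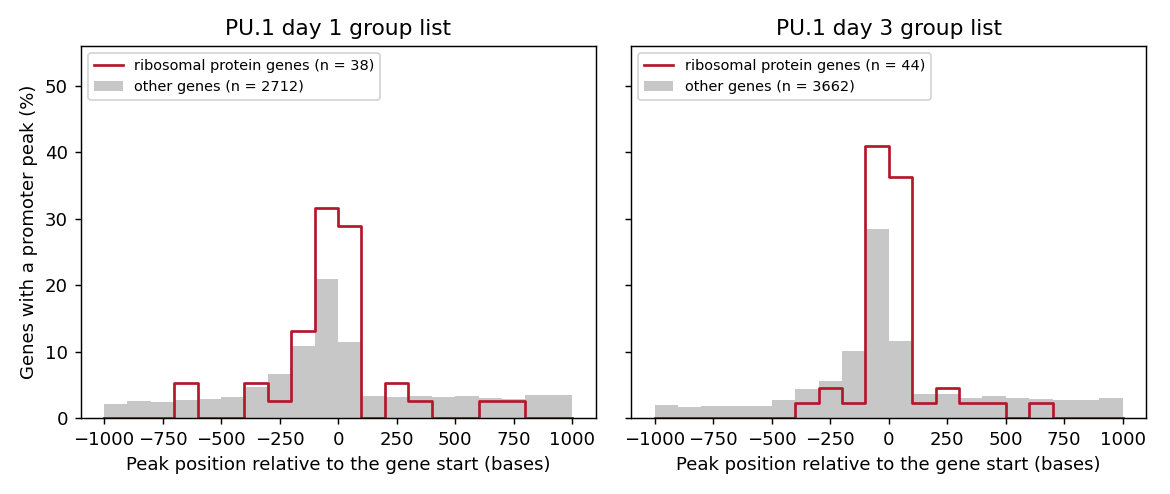
Position of the PU.1 group-list promoter peak relative to the gene start (x axis, bases, negative before the start, in steps of 100) as a share of genes with such a peak (y axis, %), on day 1 (left) and day 3 (right), for ribosomal protein genes (red line, n = 38 and 44) and other genes (grey bars, n = 2712 and 3662). The red line is concentrated in the 2 steps beside the start on both days, while grey bars reach across the window.

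The peaks were of middle to high rank in their lists. At ribosomal protein promoters the median enrichment came to 31.7 and 54.5 in the day 1 libraries and 79.3 and 49.2 in those of day 3, against 29.3, 31.5, 39.0 and 32.4 at other promoters with a peak. Their median percentiles were 51.0, 72.6, 79.0 and 66.7, against 46.9, 51.7, 57.5 and 50.4. The difference from other promoters was smallest in day 1 replicate 1.

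The sequence at the peaks was searched within 100 bases of the peak position on both strands of the mm9 reference. The PU.1 site GAGGAAGT was found at 3 of 38 ribosomal protein promoter peaks (7.89%) of the day 1 group list, against 19.1% of peaks at other promoters and 26.9% of all peaks. On day 3 it was 3 of 44 (6.82%), against 14.6% and 24.2%. It lies within 100 bases of the start of 2.27% of all genes.

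The Ets site of housekeeping promoters, CCGGAAG, went the other way. It was at 12 of 38 ribosomal protein peaks (31.6%) on day 1, against 13.8% at other promoters and 3.16% of all peaks. On day 3 it was at 20 of 44 (45.5%), against 20.4% and 4.95%. Within 100 bases of the start it lies in 9.39% of all genes. The core GGAAG, which both sites contain, was at 37 of 38 (97.4%) and 44 of 44 (100%), against 89.1% and 90.1% at other promoters. It is so short that 58.8% of all genes have it within 100 bases of the start.

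**Figure D4:**
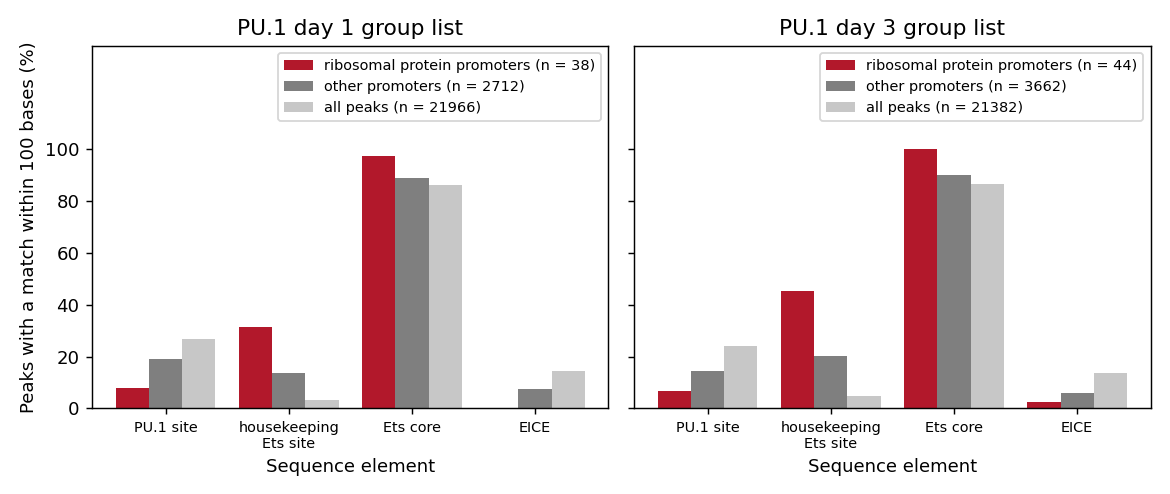
Share of PU.1 group-list peaks with a sequence element within 100 bases (y axis, %) on day 1 (left) and day 3 (right), for peaks at ribosomal protein promoters (red), at other promoters (dark grey) and all peaks of the list (light grey). The PU.1 site is at 7.89% and 6.82% of ribosomal protein promoter peaks and 26.9% and 24.2% of all peaks, and the housekeeping Ets site at 31.6% and 45.5% against 3.16% and 4.95%.

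The base before the core was looked at after these shares were seen. Shares are of promoters whose peak had a core within 100 bases, and the core nearest to the peak was taken. C preceded it at 56.8% of ribosomal protein promoters on day 1 and 63.6% on day 3, against 23.5% and 30.9% at other promoters. A preceded it at 27% and 25%, against 48.0% and 42.2%. The median distance from the peak to that core was 11 and 15.5 bases, against 18 and 16. The string CGGAAG, which lies within CCGGAAG, was within 100 bases of 65.8% and 75% of ribosomal protein peaks, 33.3% and 39.9% of other promoter peaks, and the starts of 16.9% of all genes. AGGAAG was at 52.6% and 56.8%, against 56.5% and 51.9%, so that many promoters held both.

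The same strings differed in frequency between ribosomal protein genes with and without PU.1 peaks. In the 300 bases from 250 before to 50 after the start, CGGAAG was in 25 of the 34 genes with a promoter peak in all 4 PU.1 libraries (73.5%), 18 of 31 with 1 to 3 (58.1%) and 5 of 20 with none (25%), against 20% of all genes. GGAAG was in 33 of 34, 29 of 31 and 13 of 20, against 71.6% of all genes. Among the 14 genes with none that are no paralogues, GGAAG was in 7, CGGAAG in 3, AGGAAG in 1 and CCGGAAG in 0. AGGAAG was in 55.9%, 58.1% and 20% of the 3 groups, against 34.7% of all genes, so both forms of the core were rarer without a PU.1 peak. CGGAAG was also rarer among other genes without one: 40.7% of those with a peak in all 4 libraries and 11.5% of those with none held it. The median ratio of observed to expected CpG, a measure of CpG-island character, was 0.855, 0.849 and 0.719 in those 3 groups and 0.836 in all 85, against 0.534 in all genes; its part in the motif shares, since CGGAAG holds a CpG, was not tested. A match is a string in the reference and was not shown to be bound.

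Other elements were also counted. The EICE (GGAANNGAAA) was at 0 of 38 and 1 of 44 ribosomal protein promoter peaks of PU.1, against 7.6% and 6.06% at other promoters, and lies near the start of 1.56% of all genes. The YY1 string AAGATGGC was at 7.89% and 11.4%, against 2.58% and 3.85%, and near 3.05% of all starts. The SP1 string GGGCGG was at 39.5% and 52.3%, against 32.3% and 41.3%, and near 40.0% of all starts. The NRF1 string GCGCANGCGC was at 10.5% and 9.09%, against 3.61% and 6.39%, and near 5.11% of all starts. The AP-1 string TGANTCA was at 2.63% and 0%, against 5.13% and 3.71%, and near 4.16% of all starts.

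IRF4 promoter peaks across the 6 libraries came to 15 at 13 ribosomal protein genes (15.3%), against 8.24% of all genes with one in any IRF4 library. Of the 15, 8 (53.3%) had a PU.1 peak of the same day within 200 bases in at least 1 library, and 6 (40.0%) in both. Among the 2587 IRF4 promoter peaks counted at other genes in the same way it was 50.3% and 34.9%. GGAAG was within 100 bases of 10 (66.7%), against 66.4% at other genes. The ISRE (GAAANNGAAA, a site for pairs of IRF proteins) was at 3 of the 15, against 9.32%, and the EICE at 1, against 11.4%. The 15 peaks are few, 2 of them are at Rps19 and 2 at Rps14, and no test was made of these shares. Those at Rps14 were both in day 1 replicate 3 (enrichment 25.1 and 21.9). A single gene, Rps19, had IRF4 promoter peaks in 2 libraries. They were in day 1 replicate 2 (enrichment 21.1, chr7:25669187-25669562) and replicate 3 (23.7), with PU.1 peaks of both day 1 libraries close by and an ISRE within 100 bases. In their own lists they ranked at the 4.39 and 26.7 percentile, near the foot of the first of these.

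The strongest IRF4 promoter peak was at Rpl13, in day 1 replicate 3, with enrichment 63.2 (94.8 percentile), at position -441 from the start. It had an AP-1 string and no PU.1 peak of day 1 within 200 bases. Rps27 had 39.7 in day 1 replicate 2, with PU.1 peaks of both day 1 libraries. Rpl29 held the single EICE, and an ISRE, at a peak of 23.9 in day 1 replicate 3, and no PU.1 library had a promoter peak there. Rpl5, Rps3 and Rps26 had IRF4 peaks of 22.8 to 25.2 in day 1 replicate 2 alone, each beside PU.1 peaks of both libraries. In day 3 replicate 3 Rpl32 had 17.7, Rpl27 17.1 and Rpl3 16.7. Apart from Rpl13 and Rps27, the peaks lay below the median of their lists.

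Farther out, some IRF4 peaks near ribosomal protein genes lay in or next to other genes. The peak counted for Rpl35 on both days (28.8 and 30.0) lay in Arpc5l, an actin nucleation gene, with an EICE. The Rpl18 peak of day 1 (32.7), 2592 bases from the annotated gene start, lay 22 bases from the RefSeq start of Rpl18 and 47 bases from the start of Sphk2, a sphingosine kinase gene, so distance assigns it to both. The Rps14 peak of both days (29.7 and 27.5) had an EICE and lay between genes, nearest to the start of Cd74, the invariant chain of antigen presentation. The Rps20 peak (43.5, day 1) had an EICE 10.7 kb from that gene, and the Rpl24 peak (53.8, day 1) an AP-1 string at -11.9 kb from its own. The Rpl11 peak (32.8 and 20.6) with an AP-1 string was called on both days. It lay inside the Rpl11 gene, about 22 kb from its start, and nearer to the start of Tceb3. These peaks were put with ribosomal protein genes by position alone, and which gene each belongs to was not tested.

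Other genes can also share the promoter window. Another protein-coding gene starts within 1 kb of the start of 14 of the 85. Of those 14, 4 had promoter peaks in all 4 PU.1 libraries and 5 in none, and of the 71 without such a neighbour 30 had them in all 4 and 15 in none. Which of the genes a shared peak belongs to was not tested.

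Of the ribosomal or ribosome-bound protein genes of other names, Fau and Gnb2l1 (the gene of the scaffold RACK1) each had promoter peaks in all 4 PU.1 libraries and in no IRF4 library. Related lists were above the share of all genes too, though the members of each were chosen with these data known and no list was tested against another. In the PU.1 group lists the translation factors had promoter peaks at 9 (day 1) and 15 (day 3) of 36 genes, and the ribosome biogenesis genes at 12 and 18 of 37. The proteasome genes had them at 9 and 17 of 31, and the mitochondrial ribosome genes at 14 and 27 of 76. On day 1 ribosomal protein genes had the highest share of these 5 lists (44.7%, the next being 32.4%), and on day 3 the proteasome (54.8%) was above their 51.8%. In all 4 PU.1 libraries peaks were found at 27.8% of translation factor, 27% of ribosome biogenesis, 25.8% of proteasome and 17.1% of mitochondrial ribosome genes, against 40.0% of ribosomal protein genes.

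**Figure D5:**
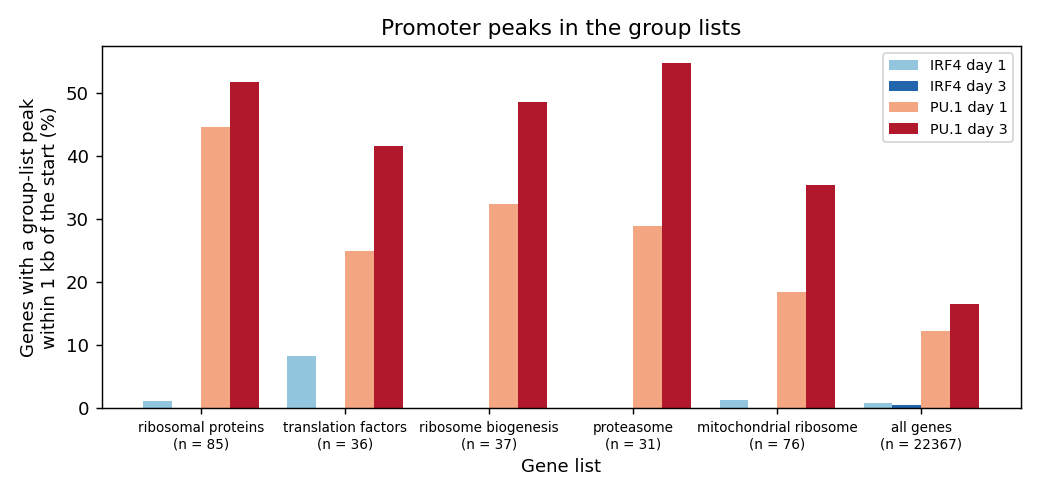
Share of genes with a group-list peak within 1 kb of the start (y axis, %) for IRF4 and PU.1 on each day, in ribosomal protein genes, 4 related gene lists and all genes (x axis, with the number of genes). PU.1 shares were 44.7% and 51.8% for ribosomal protein genes and 12.3% and 16.6% for all genes, and IRF4 shares were at most 8.33% in every list shown.

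Expression was not measured in these libraries, so no peak was set against the level of its gene. Ribosomal protein genes have many processed copies in the genome, and the sources used here do not say how reads that fit several places were treated; its part in the calls over exons was not tested.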

How the data were processed

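The deposited lists come from IRF4 and PU.1 ChIP-seq of B1-8i splenic B cells, 10 libraries and 4 group lists. The authors aligned to mm9 and used QuEST to score enrichment against input, per the series' design text (aligner, versions and thresholds: not given in the sources used here). The maximum enrichment in the lists is the authors' fold ratio to input. Lists hold no read counts.

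All group-list lines were copies of library lines (IRF4 day 1: 767 from replicate 1 and 1729 from replicate 2; IRF4 day 3: 1772 and 192). Replicate numbers follow the sample descriptions. Positions are as deposited; the sources used here do not say whether they count from 0 or 1.

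Genes were GENCODE M1 protein-coding models on mm9, without the mitochondrial chromosome. A promoter peak has its position within 1 kb of the gene's outermost start. Sequence was read from the mm9 reference with pysam 0.24.0. RefSeq starts, from promoters placed by exact match, were an alternative. Genes without a placed RefSeq start kept the annotated start in it. Counts per library were compared by exact permutation. The assignment of peaks to genes and the distances were checked on simulated lists, and the permutation test on fixed values. Python 3.11.15 with pandas 2.3.3 and numpy 2.4.6 was used.

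Named genes were the 12 with promoter peaks in the most libraries, those in an IRF4 group list, those in both PU.1 libraries of 1 day only, the first 12 with none, and Rpsa, Rps6, Rps19, Rps27a, Rpl5, Rpl11, Rplp0, Rplp1 and Rplp2 for their roles. Genes named at IRF4 peaks and genes at another start were chosen after their values were seen. The members and lists were chosen with earlier results of these data known. Some items are not reported here.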

Additional observations from a re-analysis of the deposited data

How the results depend on the processing

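The difference between PU.1 and IRF4 libraries kept its direction and its side of the threshold under 17 of 19 alternatives, which included other windows, other starts, the stronger 50% of each list, the 76 genes in general use, and the top 9326 peaks of PU.1 (an alternative chosen after seeing the data, as were RefSeq starts). It turned to -0.167 with the top 825 peaks of each library; fewer peaks are kept there by construction. With a replicate block over 4 pairs it was 48.75 (exact sign-flip p = 0.125, the smallest 4 pairs allow). Leaving out 1 library at a time it ranged from 45.3 to 49.3. The day differences, with no call to lose, kept their direction under every alternative run: leaving out 1 library gave -3.67 to -1.17 for IRF4 and 3.5 to 10.5 for PU.1, and a replicate block gave -2.0 and 7.0 (exact sign-flip p = 0.5 for each), or -5.0 for IRF4 with the numbers of the titles (exact sign-flip p = 0.5). Deviations of same-numbered libraries from their group means had correlations of 0.0187, -0.033 and 0.0434 for IRF4 and -0.0811 for PU.1. Those of differently numbered IRF4 libraries ranged from -0.0753 to 0.0987. These values cannot decide whether the numbers pair the libraries, since peak calls are a coarse measure. For PU.1, with 2 libraries per day, the deviations mirror each other and the correlations differ only in sign. Group-list counts moved most for IRF4. Day 1 promoters gave 2 genes from any transcript start, 2 from RefSeq starts, 0 in the stronger 50%, and 0 to 1 in a list rebuilt from peaks called in 2 libraries with each replicate left out (0 without replicate 2 or 3, 1 without replicate 1). The IRF4 day 1 count within 20 kb became 3 at 5 kb, 18 at 50 kb and 4 in the stronger 50%, and that of day 3 became 1 at 5 kb and 8 at 50 kb. In the stronger 50% of the PU.1 day 1 list 16 genes had a promoter peak and 37 a peak within 20 kb. Rebuilt PU.1 lists without 1 replicate, which leave the other's own list, gave 45 to 48 genes on day 1 and 50 to 57 on day 3. The cause of these shifts was not tested beyond the number of peaks kept. Unknown depth limits every absence: a gene without a peak lacks a call, not necessarily the factor.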
